A study of Mus musculus with 16 samples.

Results

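The proteasome is the protease that takes apart ubiquitin-tagged proteins. Its 20S core is a barrel of alpha subunits, which form the outer rings and the gate, and beta subunits, which form the inner rings and carry the cutting sites. The 19S cap binds ubiquitin, unfolds the substrate with a ring of ATPases and removes the ubiquitin chain. Psmb5, Psmb6 and Psmb7 encode the catalytic beta subunits of the constitutive core. Psmb8, Psmb9 and Psmb10 encode their immunoproteasome counterparts, which replace Psmb5, Psmb6 and Psmb7 respectively, are known to be induced by interferon and favour the production of peptides for MHC class I. The retinal pigment epithelium (RPE), the pigmented layer behind the photoreceptors, digests shed outer segments every day and relies on protein turnover throughout life.

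A set of 34 proteasome subunit genes was taken by symbol from the 51912 genes of the count table, and all 34 were found. They comprised 7 alpha and 7 beta genes of the 20S core, 3 immunoproteasome beta genes, and 6 ATPase and 11 non-ATPase genes of the 19S cap. The 31 genes other than Psmb8, Psmb9 and Psmb10 are called constitutive below. All 34 passed the filter on low values (a mean of at least 1 count per 1e+06 counts, CPM, over all libraries), which left 15380 genes for testing.

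The libraries came from RPE of male C57BL/6 mice aged 40 weeks of the wild-type genotype or with a knockout (KO) of SUCNR1, a receptor for succinate. Animals of both genotypes were either untreated or given hydroquinone, an oxidant used to provoke oxidative stress, and are called unexposed and exposed here. There were 4 groups of 4 libraries, each library from 1 eye: unexposed wild type, exposed wild type, unexposed knockout and exposed knockout. The knockout allele, the dose, the route and the length of exposure are not given in the sources used here. By the sample titles the groups came from 2, 4, 3 and 4 mice, since 3 mice gave both eyes, whereas the protocol states 4 animals per group, and this difference could not be settled. Where eyes share a mouse, p-values rest partly on the spread between eyes.

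Library totals ranged from 21113549 to 35332444 counts, and the 34 genes together held between 0.287% and 0.415% of them. Sucnr1 had 29 counts over the 8 wild-type libraries and 4 over the 8 knockout libraries, too few to check the genotype of single libraries, so the labelled genotypes were kept. The RPE was identifiable in every library, with a mean log2(CPM + 1) of 12 RPE markers between 9.29 and 10.03. Transcripts of other cells varied more. The same score ran from 2.80 to 9.86 for 15 rod markers and from 8.13 to 10.72 for 8 corneal epithelium markers. In such bulk RNA, fewer cells of a type and less RNA per cell cannot be told apart. Exposed wild-type replicates 2 and 3 stood at opposite ends for most proteasome genes, so values that moved most without one or both of them are given beside the results.

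Promoter sequences were read for the genes on which the results turn: the immunoproteasome genes Psmb8 and Psmb9, which varied most, and Psmb5 and Psmb6, the constitutive genes whose subunits they replace, which varied much less. Windows from 250 bases before to 50 bases after the start site came from RefSeq (GRCm38.p6), in which 28 of the 34 genes had an entry. They lie on chr17:34197945-34198244 (plus strand, Psmb8), chr17:34187281-34187580 (minus strand, Psmb9), chr14:54617946-54618245 (minus strand, Psmb5) and chr11:70525107-70525406 (plus strand, Psmb6), and each covers the flank of a RefSeq start site and the first bases transcribed from it. For Psmb8 and Psmb9 the window lies inside the gene span of GENCODE, which begins further upstream. They are written 5′ to 3′ in the direction of transcription, with capitals marking matches to the interferon-gamma activated site TTCNNNGAA, the core of the interferon-stimulated response element (TTTC, any 2 bases, TTTC) or the core of the antioxidant response element TGACNNNGC, searched on both strands.
Psmb8: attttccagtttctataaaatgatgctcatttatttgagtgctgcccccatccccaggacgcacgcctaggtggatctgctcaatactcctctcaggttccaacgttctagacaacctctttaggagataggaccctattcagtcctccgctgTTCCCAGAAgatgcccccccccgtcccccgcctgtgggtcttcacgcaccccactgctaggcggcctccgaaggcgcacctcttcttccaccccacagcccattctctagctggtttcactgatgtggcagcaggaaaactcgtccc
Psmb9: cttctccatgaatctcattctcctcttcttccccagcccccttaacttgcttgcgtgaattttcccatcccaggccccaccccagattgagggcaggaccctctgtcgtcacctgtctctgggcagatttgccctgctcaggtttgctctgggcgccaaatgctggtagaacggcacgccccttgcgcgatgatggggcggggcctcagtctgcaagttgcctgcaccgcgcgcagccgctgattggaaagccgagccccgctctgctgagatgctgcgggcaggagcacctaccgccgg
Psmb5: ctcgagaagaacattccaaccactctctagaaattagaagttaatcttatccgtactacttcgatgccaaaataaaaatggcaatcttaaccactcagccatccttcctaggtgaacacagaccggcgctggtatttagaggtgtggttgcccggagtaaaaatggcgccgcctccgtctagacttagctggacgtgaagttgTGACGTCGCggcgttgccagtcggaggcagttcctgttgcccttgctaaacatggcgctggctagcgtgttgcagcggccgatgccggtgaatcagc
Psmb6: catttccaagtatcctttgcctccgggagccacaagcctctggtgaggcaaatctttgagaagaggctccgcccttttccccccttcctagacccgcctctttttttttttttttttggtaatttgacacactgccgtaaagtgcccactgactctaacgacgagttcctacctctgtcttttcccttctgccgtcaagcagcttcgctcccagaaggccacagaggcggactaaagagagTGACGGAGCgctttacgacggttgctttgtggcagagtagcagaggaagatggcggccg

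The Psmb8 window held 1 interferon-gamma activated site match, TTCCCAGAA, from 97 to 89 bases before the start site, which reads as a match on both strands because the motif is palindromic. The Psmb5 window held an antioxidant core match, TGACGTCGC, 47 to 39 bases before the start, and the Psmb6 window one, TGACGGAGC, 9 to 1 bases before it. The Psmb9 window held none of these 3 motifs, only a CCAAT box. Among the 28 genes with a window, the interferon-gamma motif was in 2 (7.14%: Psmb8 and Psmd2), against 9.55% of all 27025 genes with a window. The interferon-stimulated core was in 2 (7.14%: Psmb3 and Psmd4), against 3.99%. The antioxidant core was in 4 (14.3%: Psmb5, Psmb6, Psmc6 and Psmd12), against 14% of all genes, and the CCAAT box in 11 (39.3%), against 41.1%. A match is a description of the letters in the window and does not show that a factor binds there.

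Psmb8 and Psmb9 are neighbours within the MHC region of chromosome 17, at 34197721 to 34201454 (plus strand) and 34181987 to 34187764 (minus strand) in GENCODE vM21 on GRCm38. Psmb10 lies on chromosome 8 (105935735 to 105938444, minus strand). The constitutive counterparts lie on chromosomes 14 (Psmb5, 54614119 to 54618022, minus strand), 11 (Psmb6, 70525367 to 70527858, plus strand) and 2 (Psmb7, 38588036 to 38644087, minus strand). Some of the genes share sequence with other genes, which bears on how their reads were assigned. Of the 34, 8 had at least 10% of the 50-base windows of their exons in another gene, mostly processed pseudogenes, and 12 had none. Psmb5 (54.1%) and Psma5 (49.96%) shared most, so their levels are uncertain. Psmb8 shared 11.9% with 32 other genes, of which the overlapping antisense gene Gm20496 shared most, and Psmb9 shared 4.19% with Tap1. The strand setting of the counting is not given in the sources used here, so reads from overlapping genes may not be separated.

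Levels were compared between genes per kilobase of exon, as CPM per kb, given as mean ± SD over the 16 libraries. The ranges of the constitutive core and cap overlapped, and the immunoproteasome genes lay at their lower end or below. Among alpha genes the level ran from 22.5 ± 2.3 CPM per kb (SD, n = 16) for Psma3 to 83.1 ± 12.5 for Psma6, with a class median of 33.3. Among constitutive beta genes it ran from 24.6 ± 3.3 for Psmb3 to 80.3 ± 13.3 for Psmb4, a non-catalytic beta subunit, with a median of 43.6. These ranges overlap almost completely. The ATPases, which unfold the substrate, ran from 21.3 ± 2.0 CPM per kb for Psmc6 to 81.7 ± 10.6 for Psmc5, and their median of 54.6 was the highest of the 5 classes. The non-ATPase cap genes ran from 11.0 ± 0.65 for Psmd11, a scaffold subunit of the lid, to 55.5 ± 2.8 for Psmd2, a large scaffold subunit of the base, with a median of 27.1. Exon length here is the union over all annotated transcripts, so genes with long alternative exons read low.

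Psmb8 reached 17.9 ± 10.3 CPM per kb, Psmb10 14.8 ± 5.0 and Psmb9 4.79 ± 3.04 (SD, n = 16). Psmb8 and Psmb10 did not differ beyond their spread, and Psmb9 was the lowest of all 34 genes. Their constitutive counterparts stood at 30.5 ± 5.6 (Psmb5), 63.7 ± 9.8 (Psmb6) and 43.6 ± 4.9 (Psmb7), where the Psmb5 value carries the uncertainty of its shared sequence. In unexposed wild type the ratio of the length-scaled levels was 0.583 ± 0.083 (SD, n = 4) for Psmb8 over Psmb5, 0.315 ± 0.101 for Psmb10 over Psmb7 and 0.0682 ± 0.0056 for Psmb9 over Psmb6. So all 3 immunoproteasome transcripts were present in the unexposed wild-type libraries, and Psmb9 was the least represented. Per kilobase of exon each lay below the gene it replaces. For Psmb8 that order depends on the length scaling, with exon unions of 3381 bases for Psmb8 and 899 for Psmb5. In CPM, Psmb8 was above Psmb5 in these libraries (46.7 to 71.0 against 21.1 to 29.5), so their order is not settled. These bulk libraries also hold transcripts of other cells, so which cells carried them was not tested.

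**Figure D1:**
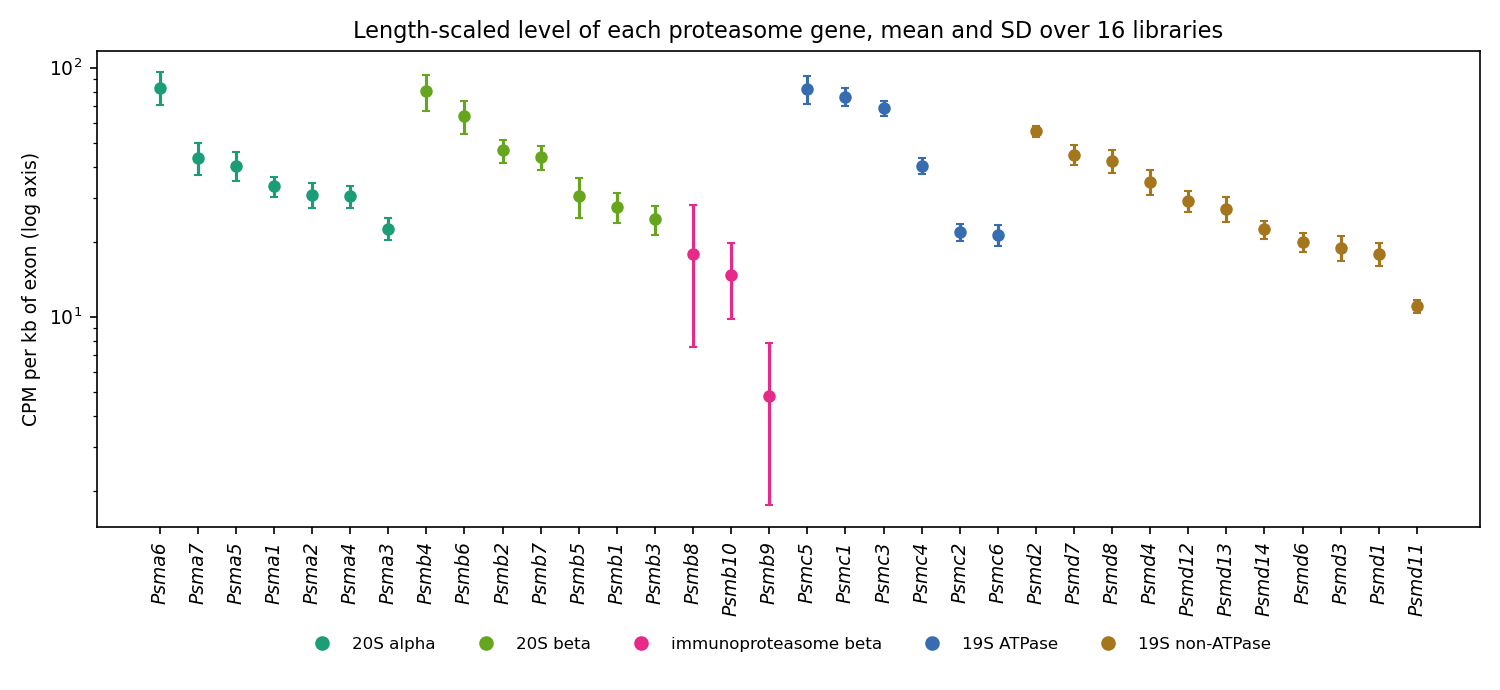
Length-scaled level (CPM per kb of exon, log axis) of each of the 34 proteasome genes, coloured by subunit class, with the mean and SD over 16 libraries. Psmb9 sits lowest at 4.79, while Psma6, Psmc5 and Psmb4 lie at 80.3 to 83.1.

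The constitutive genes varied little between libraries of a group and the immunoproteasome genes varied much more. The within-group SD of log2(CPM + 1) had a median of 0.15 over the 31 constitutive genes, from 0.06 for Psmd2 to 0.27 for Psmb5. It was 0.75 for Psmb8, 0.70 for Psmb9 and 0.47 for Psmb10. The median over all 15380 genes was 0.27, and 0.21 over the 6582 genes whose mean level lay within the range of the constitutive genes. Between the highest and the lowest library, Psmb8 differed 9.77-fold, Psmb9 9.85-fold and Psmb10 3.93-fold. Among constitutive genes that ratio ran from 1.18 for Psmd2 to 2.15 for Psmb4, with class medians of 1.38 for ATPases, 1.48 for non-ATPases, 1.58 for alpha and 1.88 for beta genes.

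The same 2 exposed wild-type libraries marked the ends for most of the genes. Replicate 2 of that group was the highest of all 16 libraries for 24 of the 31 constitutive genes and for all 3 immunoproteasome genes. Replicate 3 was the lowest for 22 of the 31 and for Psmb8 and Psmb9. In the 20S core each of these libraries was at the end for 12 of 14 genes. The 2 large scaffold genes of the base, named here after their values were seen, had the opposite order. Psmd1 was 106.4 CPM in replicate 2 and 160.6 in replicate 3, and Psmd2 was 219.5 and 241.9. These 2 libraries also differed in other cell markers: the corneal epithelium score was 10.65 in replicate 2 and 8.27 in replicate 3, and a score of 14 interferon-response genes (Ifit1, Isg15, Gbp2 and others, none of them a proteasome gene) was 6.81 and 4.13, the highest and the lowest of the 16 libraries. Each of these 2 scores was also used as a covariate, in fits added after the data were seen. Psmb8 and Psmb9 varied closely with the interferon score over the same mice (r = 0.927 and 0.950). A fit with that score could be expected to change their values, and it does not show the source of a difference.

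**Figure D2:**
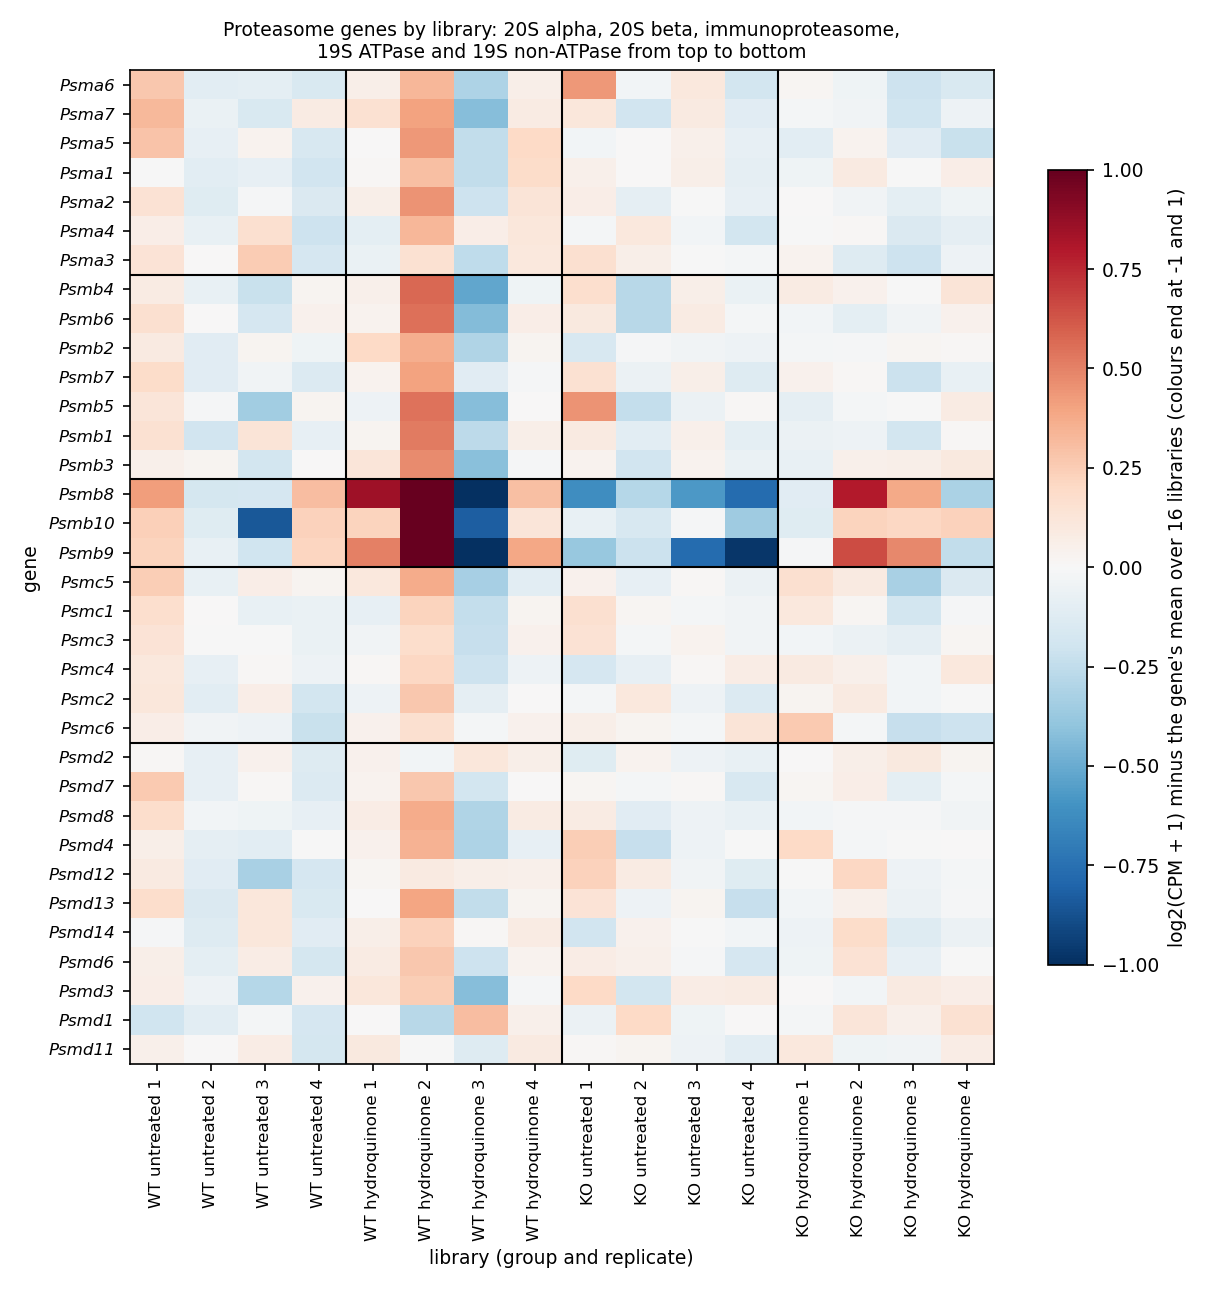
Difference of log2(CPM + 1) from each gene's mean over 16 libraries, one row per proteasome gene and one column per library, ordered by class and group. Exposed wild-type replicate 2 is high and replicate 3 low in most rows, and the rows of Psmb8 and Psmb9 reach furthest.

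Values for the catalytic beta genes are given library by library, in CPM and in replicate order. Psmb5, the constitutive chymotrypsin-like subunit, was 29.5, 26.8, 21.1 and 27.5 in unexposed wild type, 26.0, 39.8, 19.8 and 27.1 in exposed wild type, 37.3, 22.8, 26.0 and 27.3 in unexposed knockout and 25.3, 26.7, 27.0 and 28.7 in exposed knockout. Its 4 groups overlapped throughout. Psmb6, the constitutive caspase-like subunit, was 131.7, 118.2, 104.8 and 121.9 in unexposed wild type, 120.8, 173.2, 87.0 and 123.4 in exposed wild type, 126.1, 97.3, 125.2 and 116.5 in unexposed knockout and 115.9, 110.1, 115.1 and 121.7 in exposed knockout. Psmb7, the constitutive trypsin-like subunit, was 169.2, 137.1, 144.7 and 134.8, then 151.8, 196.8, 137.5 and 147.3, then 164.8, 142.3, 154.8 and 135.4, and 153.2, 149.5, 128.0 and 140.7 in the same group order. For Psmb6 and Psmb7 too every group overlapped every other, and replicate 2 of exposed wild type was the highest library.

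Psmb8 was 71.0, 46.7, 46.9 and 65.99 CPM in unexposed wild type, 96.3, 162.2, 16.6 and 65.4 in exposed wild type, 34.1, 43.3, 35.3 and 30.6 in unexposed knockout and 49.0, 92.4, 69.0 and 42.4 in exposed knockout. Exposed wild type held both the highest and the lowest library, while every unexposed knockout library lay below every unexposed wild-type library. Psmb9 was 18.03, 14.5, 13.22 and 17.9 CPM in unexposed wild type, 22.2, 53.7, 5.46 and 20.4 in exposed wild type, 11.53, 13.04, 8.57 and 7.32 in unexposed knockout and 15.2, 24.7, 21.8 and 12.8 in exposed knockout. Its unexposed genotypes did not overlap either, but only just, with 13.04 in the highest knockout and 13.22 in the lowest wild-type library. Psmb10 was 28.5, 21.9, 12.9 and 28.3 CPM, then 28.2, 50.5, 13.1 and 26.1, then 22.8, 21.4, 23.8 and 18.5, and 21.9, 28.2, 27.8 and 28.3 in the same group order, and its groups overlapped.

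**Figure D3:**
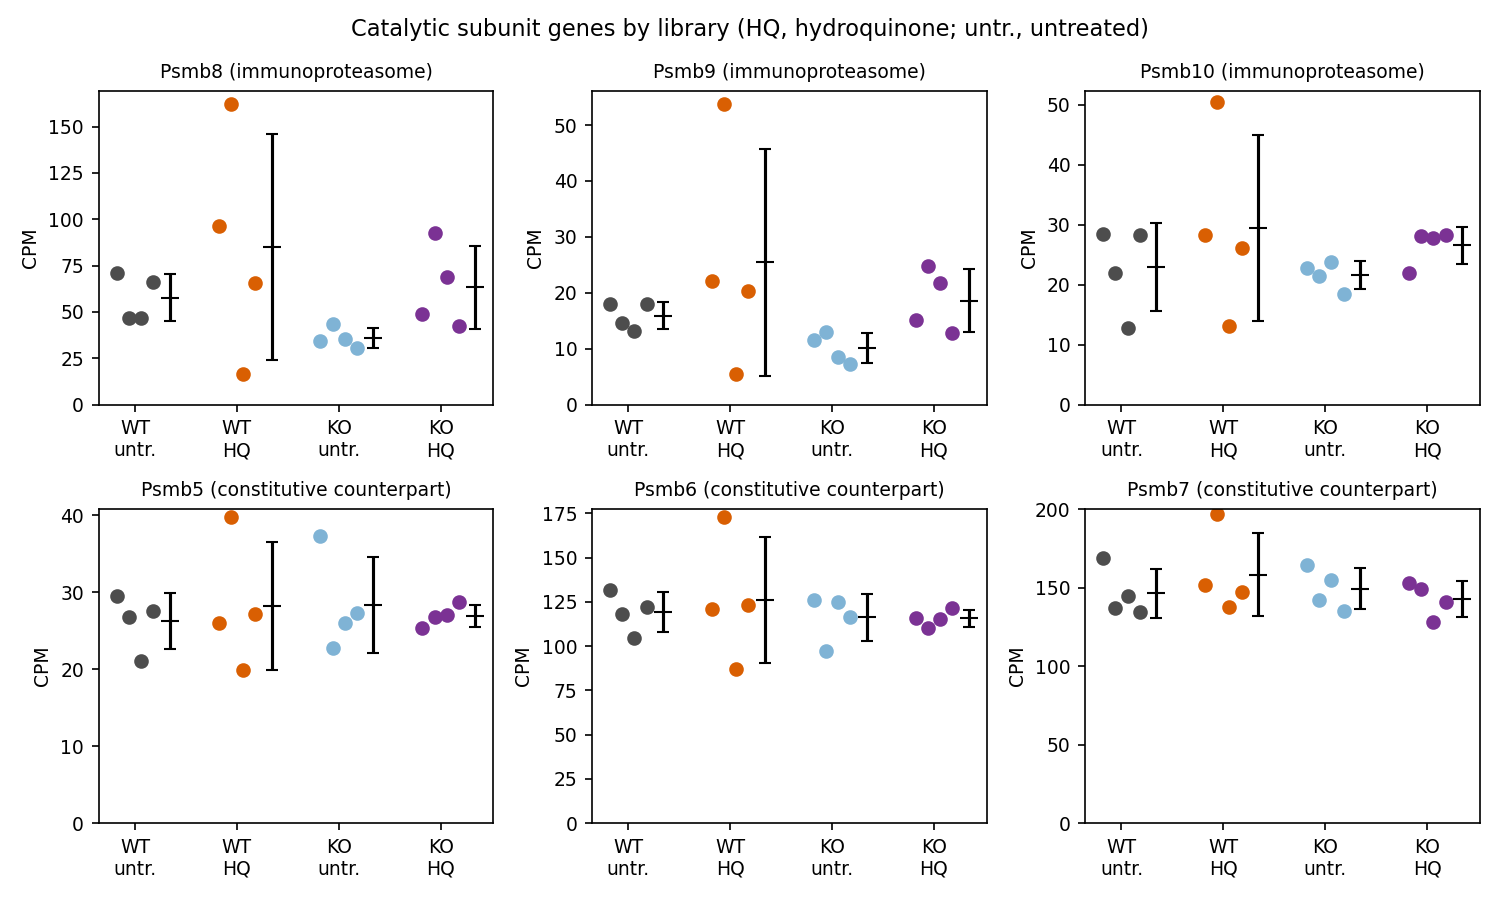
CPM (linear axis) of the 3 immunoproteasome genes and their 3 constitutive counterparts in each library, by group, with group means. Psmb8 and Psmb9 spread nearly 10-fold, between exposed wild-type replicates 2 and 3. Psmb5 (19.8 to 39.8), Psmb6 (87.0 to 173.2) and Psmb7 (128.0 to 196.8) spread less.

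The first question was whether hydroquinone altered the proteasome genes, since oxidative stress is a known setting for increased proteasome transcription. In wild type, 0 of the 34 genes passed an adjusted p below 0.05 (edgeR quasi-likelihood test, Benjamini-Hochberg adjustment over 15380 genes), where 1 gene, 0.0065% of those tested, was called. None of the 34 had an unadjusted p below 0.05, against 4.28% of all genes, and DESeq2 and limma called 0 of them too. In none of the 34 were the 2 groups' libraries apart, which they were for 2.91% of all genes. The genes with the smallest p were Psma1, an alpha-ring subunit, with a log2 fold change of 0.16 (SE 0.10), Psmd12, a lid subunit, with 0.17 (SE 0.11), and Psmb9 with 0.67 (SE 0.46), each with an edgeR adjusted p of 0.994. Of the 34, 29 had a positive log2 fold change, against 50% of all genes, with a median of 0.08 against -0.0002 for all genes. That count depended on 2 libraries. Without exposed wild-type replicate 2 it was 10 of 34, with a median of -0.05. Without replicate 3 it was 33, with a median of 0.15, and 6 of the 34 genes, among them all 3 immunoproteasome genes, had an unadjusted p below 0.05, as did 1183 of 15391 genes tested. Without both it was 23, with a median of 0.04. Psmb9 was -0.01 without replicate 2, 1.00 without replicate 3 and 0.39 without both, and Psmb8, 0.55 in the full fit, was 0.03, 0.89 and 0.46. With the corneal epithelium score as a covariate Psmb9 was 0.12 and Psmb8 -0.03, with the interferon score -0.08 and -0.17, and in a limma fit that blocks by mouse 0.27 and 0.18.

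In knockout, hydroquinone gave 0 calls among the 34 by edgeR, DESeq2 or limma, where edgeR called 7 genes (0.0455%). No member had an unadjusted p below 0.05, against 2.96% of all genes. Of the 3 immunoproteasome genes, 2 did when only the groups compared were fitted, as did 394 of 15349 genes tested. With exposed wild-type replicates 2 and 3 left out of the shared fit, 2 did as well (517 of 15391 genes). With the corneal epithelium score as a covariate there were again 2 (734 of 15380 genes). Signs were divided, with 18 positive (49.6% of all genes) and 16 negative (50.4%), and a median of 0.01. The 2 largest changes belonged to the immunoproteasome: Psmb9 at 0.88 (SE 0.46, 95% interval -0.10 to 1.87) and Psmb8 at 0.82 (SE 0.46, -0.15 to 1.79), each with an edgeR adjusted p of 1.00. Psmd2 came next by p, at 0.10 (SE 0.07). The means of Psmb8 were 35.8 ± 5.4 CPM in unexposed knockout and 63.2 ± 22.6 with hydroquinone (SD, n = 4 libraries each), and those of Psmb9 10.1 ± 2.6 and 18.6 ± 5.6. For both genes the lowest exposed library lay below the highest unexposed one. No member had groups that did not overlap, against 1.78% of all genes.

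Averaged over genotype, edgeR called 0 of the 34 genes, where 13 genes (0.0845%) were called, and 2 of the 34 (5.88%) had an unadjusted p below 0.05, close to the 5.72% of all genes. DESeq2 and limma called 0 as well. The 2 genes were Psmb9, at 0.77 on the log2 scale (SE 0.32, 95% interval 0.08 to 1.47, unadjusted p = 0.031, edgeR adjusted p = 0.864), and Psmb8, at 0.69 (SE 0.32, unadjusted p = 0.049, adjusted p = 0.869). Psmb10 stood at 0.33 (SE 0.22, 95% interval -0.15 to 0.80) and Psmd2 at 0.09 (SE 0.05). Without exposed wild-type replicate 2 the values were 0.44 for Psmb9 and 0.43 for Psmb8, without replicate 3 they were 0.94 and 0.86, and with both left out 0.63 for both. No immunoproteasome gene had an unadjusted p below 0.05 without exposed wild-type replicate 2. The same held with the eyes of a mouse summed (0.79 for Psmb9 and 0.69 for Psmb8). In a limma fit that blocks by mouse (0.54 and 0.46) none had one either. Nor did any with the macrophage or interferon score as a covariate. It was also lost without unexposed wild-type replicate 3, unexposed knockout replicate 3 or 4, or exposed knockout replicate 2 or 3. The library identifiers in the labels come in 2 forms, without a letter (9 libraries) and with one (7), which may mark separate preparations. Within these forms Psmb9 was 0.76 and 0.69, and Psmb8 0.76 and 0.45. Exposed wild type has only replicate 4 with a letter, so values with a letter that use this group rest on that library. Among libraries without a letter, no immunoproteasome gene had an unadjusted p below 0.05. With a letter, hydroquinone in knockout gave 3 of the 34, 2 of them immunoproteasome genes, an unadjusted p below 0.05, as it did 3028 of 15433 genes. The 31 constitutive genes stayed within narrow bounds. Their log2 fold changes ran from -0.11 (Psma3) to 0.10 (Psmd1), and their 95% intervals reached from -0.31 (Psma6) to 0.36 (Psmb4). The counterparts Psmb5, Psmb6 and Psmb7 gave 0.0077 (SE 0.14), 0.03 (SE 0.11) and 0.019 (SE 0.09).

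By class, the medians of the hydroquinone effect averaged over genotype were -0.0047 for alpha, 0.03 for beta, -0.014 for ATPase, 0.04 for non-ATPase and 0.69 for immunoproteasome genes, beside 0.0046 for all genes tested. Over all 34 genes, 27 had a positive sign, against 51.2% of all genes, while 13 did without exposed wild-type replicate 2, 30 without replicate 3 and 18 without both. In the same libraries, 7 of 10 genes of an oxidative response list (Nqo1, Osgin1 and others) passed the test, all higher, against 0.0845% of all genes. That list was chosen with earlier results of these data known, so it is no independent check. Osgin1 was at 1.22 (SE 0.11, edgeR adjusted p = 0.000128) and Nqo1 at 0.67 (SE 0.11, adjusted p = 0.032). Nfe2l1, the factor known to drive proteasome genes when proteasome activity falls, stood at -0.01 (SE 0.08), and Nfe2l2, the factor of the antioxidant response, at -0.12 (SE 0.11). These are transcript levels, and the activity of either factor was not tested.

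**Figure D4:**
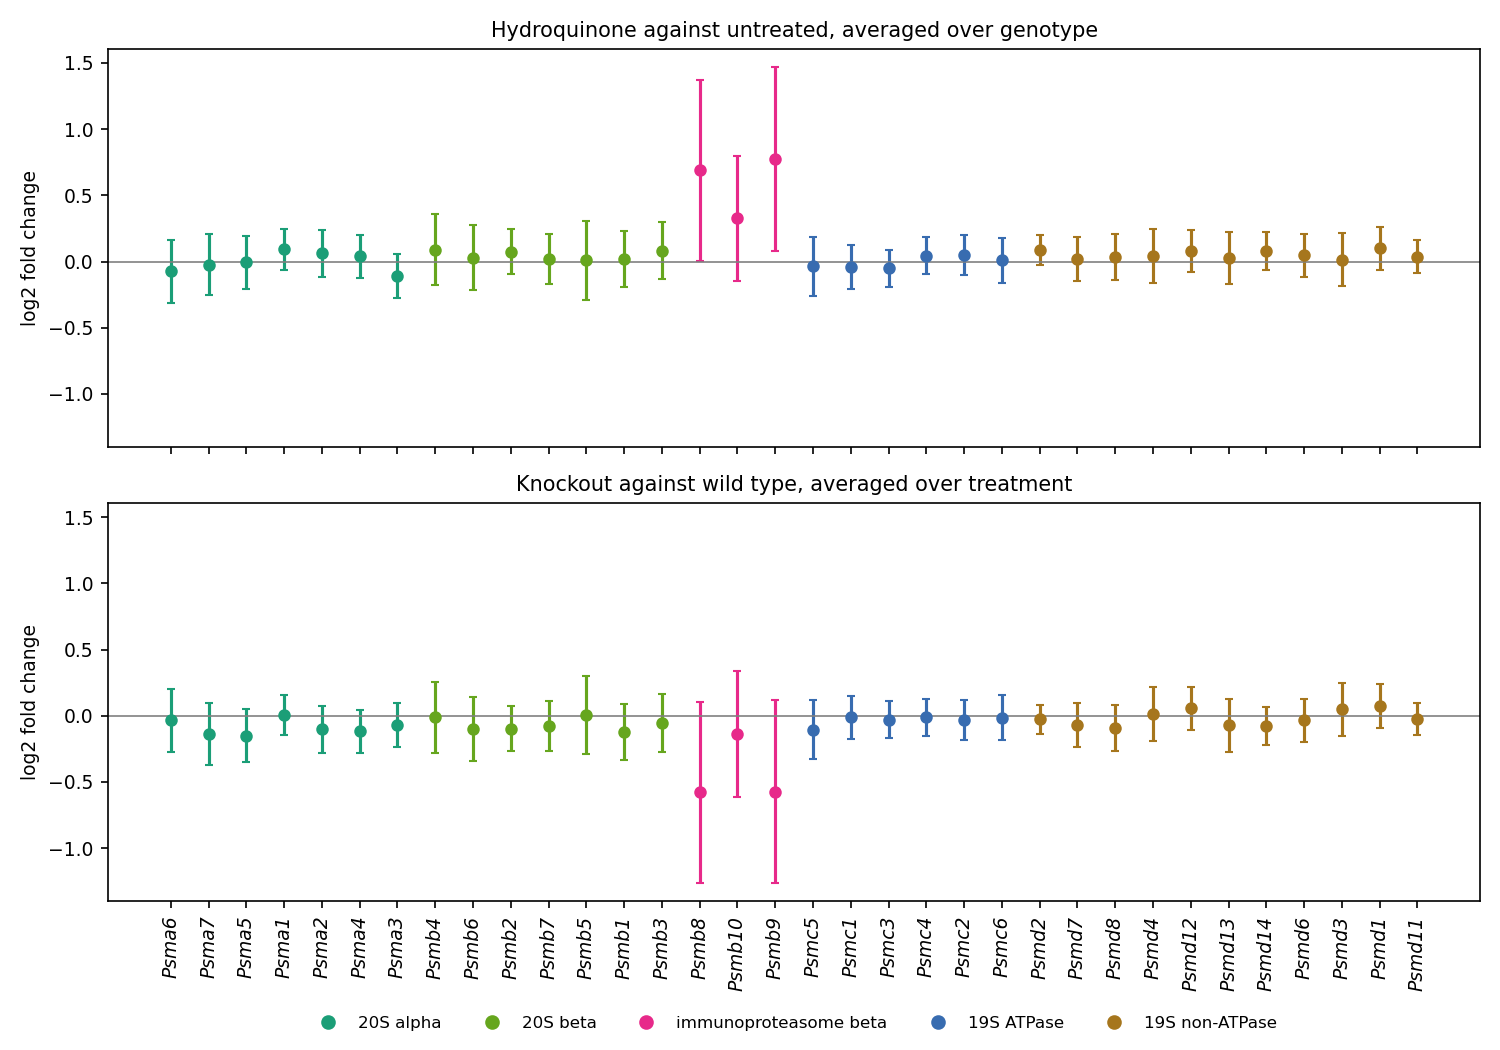
Log2 fold change with 95% interval of each proteasome gene for hydroquinone averaged over genotype and for knockout against wild type averaged over treatment (edgeR), by class. The intervals of the 31 constitutive genes lie between -0.37 and 0.36, and those of Psmb8 and Psmb9 for hydroquinone exclude 0 before adjustment in this fit, which counts eyes as separate samples.

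The second question was whether loss of SUCNR1 altered these genes. In untreated RPE, edgeR, DESeq2 and limma called 0 of the 34 and 0 of all genes (0%), and no member had an unadjusted p below 0.05, against 1.32% of all genes. An unadjusted p below 0.05 was found for 2 immunoproteasome genes in a fit of the groups compared alone, as for 224 of 15451 genes tested. The same number was found in the shared fit without exposed wild-type replicates 2 and 3 (294 of 15391 genes). In libraries with a letter alone there were also 2 (637 of 15433 genes). Psmb8 had a log2 difference, knockout minus wild type, of -0.71 (SE 0.45, 95% interval -1.68 to 0.26), and Psmb9 of -0.68 (SE 0.46, -1.66 to 0.30), each with an edgeR adjusted p of 1.00. In these 2 of the 34 genes the libraries of the groups did not overlap, which was so for 1.22% of all genes. Psmd12 came next by p at 0.15 (SE 0.11). Over all 34 genes, 9 had a positive sign, against 53.2% of all genes, with a median of -0.04. Psmb10 was -0.11 (SE 0.31), and Psmb5, Psmb6 and Psmb7 were 0.09, -0.06 and 0.0033. The interferon score had the same sign of difference, at 4.64 ± 0.29 in unexposed knockout against 5.29 ± 0.34 in unexposed wild type (SD, n = 4 libraries each), with a negative log2 difference for all 14 of its genes and 1 of them at an unadjusted p below 0.05. With that score as a covariate the log2 differences became 0.0086 for Psmb8 and -0.0034 for Psmb9. Both genes varied closely with the score over the same mice, so this fit does not show the source of the difference. In libraries without and with a letter alone, Psmb8 was -0.63 and -0.80, and Psmb9 -0.37 and -1.06.

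With hydroquinone, knockout against wild type gave 0 calls among the 34 and among all genes (0%) by edgeR, 0 among the 34 by DESeq2 and limma, and no member with an unadjusted p below 0.05, against 4.18% of all genes. The smallest p-values belonged to alpha genes: Psma5 at -0.24 (SE 0.13), Psma4 at -0.19 (SE 0.11) and Psma2 at -0.18 (SE 0.12). Psma5 was 53.1, 71.8, 44.4 and 60.8 CPM in wild type and 49.1, 54.1, 48.8 and 45.2 in knockout, so the groups overlapped. A negative sign was found for 30 of the 34, against 46.9% of all genes, with a median of -0.09 against 0.015 for all genes. No member had groups that did not overlap, against 2.43% of all genes. The positive signs, 4 in the full fit, were 19 without exposed wild-type replicate 2, 2 without replicate 3 and 6 without both. Without replicate 3 the median was -0.17 and 8 of the 34 genes had an unadjusted p below 0.05, beside 1781 of 15391 genes tested. Psmb8 was -0.44 (SE 0.45), Psmb9 -0.47 (SE 0.46) and Psmb10 -0.17 (SE 0.31), while they were 0.08, 0.21 and 0.23 without replicate 2, -0.78, -0.80 and -0.41 without replicate 3 and -0.37, -0.21 and -0.05 without both. With the corneal epithelium score as a covariate they were 0.46, 0.36 and 0.27, and with the interferon score 0.34, 0.32 and 0.20. The corneal score averaged 9.71 ± 1.19 in wild type and 8.90 ± 0.77 in exposed knockout (SD, n = 4 libraries each).

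Averaged over treatment, knockout gave 0 calls among the 34 by edgeR, DESeq2 and limma, and 0% of all genes by edgeR, with no member and 2.96% of all genes at an unadjusted p below 0.05. Psmb8 was -0.58 (SE 0.32, 95% interval -1.26 to 0.11), Psmb9 -0.57 (SE 0.32, -1.26 to 0.12) and Psma5 -0.15 (SE 0.09). In libraries without and with a letter alone, Psmb8 was -0.53 and -0.51, and Psmb9 -0.43 and -0.65. The values with a letter rest on replicate 4 alone for exposed wild type. Psmb10 was -0.14 (SE 0.22). The 95% intervals of the 31 constitutive genes reached from -0.37 (Psma7) to 0.30 (Psmb5). Of the 34, 28 had a negative sign and 6 a positive one, against 44.3% and 55.7% of all genes, and the positive sign was found for 16 without exposed wild-type replicate 2, 2 without replicate 3 and 8 without both. Without replicate 3, 5 of the 34 and 1511 of 15391 genes had an unadjusted p below 0.05. Without both, 2 immunoproteasome genes did, as did 642 of 15391 genes. All 14 interferon genes had a negative log2 difference in this comparison and 7 of them had an unadjusted p below 0.05. With the interferon score as a covariate Psmb8 was 0.17 and Psmb9 0.16, and with the corneal epithelium score -0.08 and -0.14.

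The interaction, which asks whether the hydroquinone effect differed between genotypes, called 0 of the 34 and 0 of all genes (0%) by edgeR, 0 by DESeq2 and 0 by limma, with no member and 1.92% of all genes at an unadjusted p below 0.05. Psmc6 (-0.19, SE 0.16), Psmd12 (-0.18, SE 0.15) and Psma6 (-0.25, SE 0.22) had the smallest p. The intervals for the immunoproteasome genes were wide: Psmb8 gave 0.27 (95% interval -1.09 to 1.63), Psmb9 0.22 (-1.16 to 1.59) and Psmb10 -0.06 (-1.01 to 0.89). Psmb8 and Psmb9 were 0.80 and 0.89 without exposed wild-type replicate 2, -0.07 and -0.12 without replicate 3, and 0.34 and 0.47 without both. With the corneal epithelium score as a covariate they were 1.07 and 1.01. In that fit 1 of the 3 immunoproteasome genes had an unadjusted p below 0.05, as did 435 of 15380 genes. With the interferon score they were 0.33 and 0.32.

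Psmb8 and Psmb9 followed the interferon-response genes across mice. Over 13 mice, with both eyes of a mouse averaged, Pearson's r between the level of Psmb8 and the interferon score was 0.927 (Spearman's rho 0.912, permutation p = 3e-05, adjusted over 6 relations 9e-05). For Psmb9, r was 0.950 (rho 0.885, permutation p = 1e-05, the smallest that the resamples can give, adjusted 6e-05). Without the 2 mice farthest from the median score, which gave exposed wild-type replicates 2 and 3, r was 0.844 for Psmb8 and 0.864 for Psmb9. For Psmb10, r was 0.814 (rho 0.615, permutation p = 0.00168, adjusted 0.00336), but r fell to 0.395 without those mice. Among libraries without and with a letter, r was 0.916 and 0.978 for Psmb8, 0.928 and 0.921 for Psmb9, and 0.750 and 0.743 for Psmb10. The libraries with a letter include neither of those mice, and the permutation p for Psmb10 there was 0.0556. The 13 mice share library depth and group differences with the score, and these relations were computed across all groups.

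Macrophages and other leukocytes are known to carry immunoproteasomes, so the same genes were set against a score of 12 macrophage markers. Here r was 0.309 for Psmb8, 0.409 for Psmb9 and 0.383 for Psmb10 (adjusted permutation p = 0.301, 0.229 and 0.229), none of which passed. Among libraries without and with a letter, r was 0.0439 and 0.659 for Psmb8, 0.0997 and 0.775 for Psmb9, and 0.397 and 0.569 for Psmb10, with a permutation p of 0.0458 for Psmb9 in the libraries with a letter. Summed macrophage markers ranged from 1115 to 3814 CPM over the libraries. They had no marker at 0 in any group. Of 8 T cell markers, 4 passed the filter, and the summed level of the list lay between 6.81 and 34.8 CPM. Their score averaged 1.10 ± 0.30 in unexposed and 1.496 ± 0.42 in exposed wild type, and 0.86 ± 0.32 and 1.48 ± 0.42 in unexposed and exposed knockout (SD, n = 4 libraries each). Their part in the levels of Psmb8 and Psmb9 was not tested. In the averaged hydroquinone comparison 11 of 12 macrophage markers had a positive log2 fold change, and none passed the test. With the macrophage score as a covariate Psmb8 was 0.66 and Psmb9 0.66 in that comparison, against 0.69 and 0.77 without it. Neither had an unadjusted p below 0.05 in that fit, whereas both did without the covariate (edgeR).

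**Figure D5:**
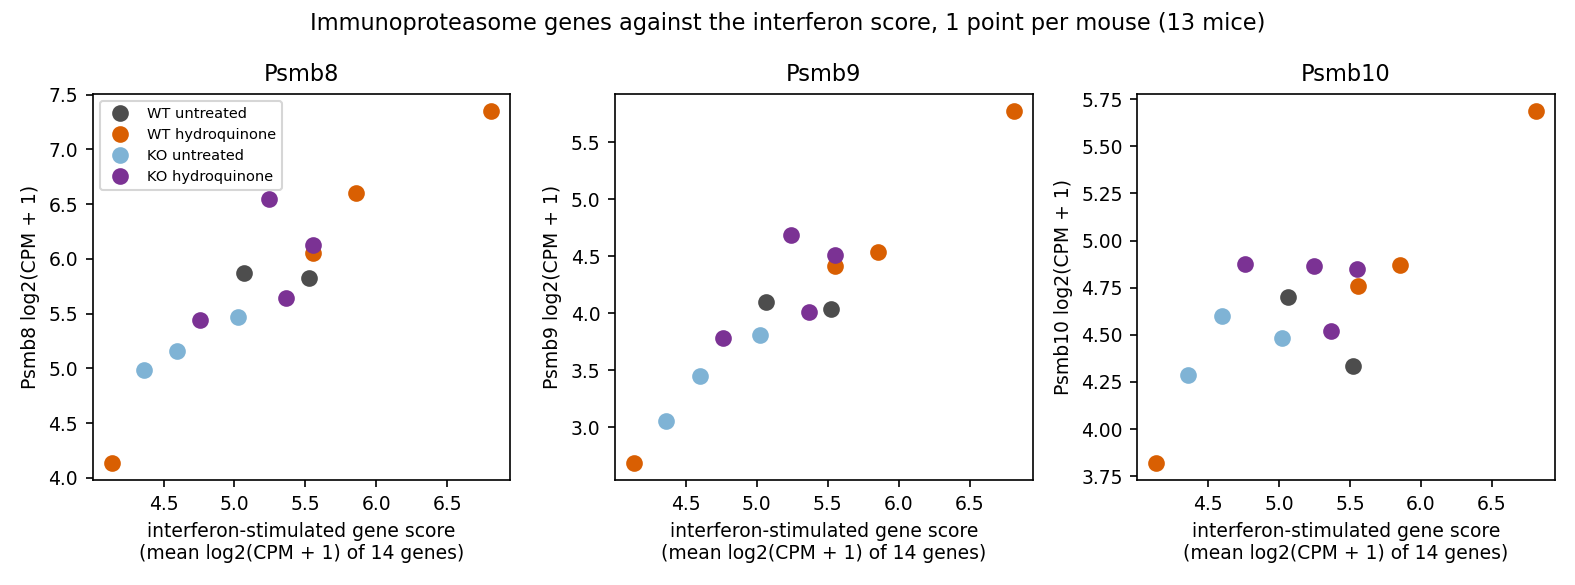
Level of Psmb8, Psmb9 and Psmb10 (log2(CPM + 1)) against the score of 14 interferon-response genes (mean log2(CPM + 1)), 1 point per mouse, coloured by group. The points of Psmb8 (r = 0.927) and Psmb9 (r = 0.950) lie along a line over all groups. For Psmb10 r is 0.814, and 0.395 without the mice that gave exposed wild-type replicates 2 and 3.

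The other genes of the pathway were grouped by role. Of 20 genes for assembly, activators and cap accessories, 19 were matched and tested, and of 18 for ubiquitin and substrate delivery all were tested. None passed the test in any of the 7 comparisons (edgeR). In the averaged hydroquinone comparison 14 of the 19 and 12 of the 18 had a positive sign, against 51.2% of all genes. At an unadjusted p below 0.05 there were 1 (5.26%) and 2 (11.1%), against 5.72% of all genes. Nploc4, a cofactor of the segregase VCP, had the smallest p there and in wild type, at 0.19 (SE 0.07) and 0.20 (SE 0.09). Akirin2, which carries proteasomes into the nucleus, had it in knockout at -0.23 (SE 0.10, unadjusted p = 0.038) and in the interaction at -0.27 (SE 0.14).

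The activator gene Psme2, which encodes a subunit of the interferon-inducible cap PA28, had the smallest p between genotypes with hydroquinone, at -0.56 (SE 0.28), and averaged over treatment, at -0.46 (SE 0.20, unadjusted p = 0.035, edgeR adjusted p = 0.987). Its levels were 103.4 ± 20.0 CPM in unexposed wild type, 131.4 ± 63.9 in exposed wild type, 82.1 ± 13.1 in unexposed knockout and 89.7 ± 16.4 in exposed knockout (SD, n = 4 libraries each). Psme1, its partner, gave -0.21 (SE 0.15) averaged over treatment, and Pomp, the assembly chaperone of the core, -0.10 (SE 0.12). The group SDs of Psme2 in exposed wild type exceed those in the other groups, as for Psmb8 and Psmb9.

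Genes that act beside the immunoproteasome in MHC class I antigen presentation had mostly the same sign as Psmb8 and Psmb9 with hydroquinone, and none of them passed the test. Of 9 such genes, 8 had a positive log2 fold change with hydroquinone averaged over genotype, against 51.2% of all genes, and 5 had an unadjusted p below 0.05, against 5.72%. H2-K1, a class I heavy chain, stood at 0.79 (SE 0.26, edgeR adjusted p = 0.775) and Tap1, the peptide transporter gene next to Psmb9, at 0.76 (SE 0.27, adjusted p = 0.820). Among regulators, Nlrc5, the transactivator of class I genes, was at 1.33 (SE 0.38, edgeR adjusted p = 0.710) and Irf1 at 0.24 (SE 0.27). The interferon list had 13 of 14 genes positive in this comparison and 6 at an unadjusted p below 0.05, beside the same shares of all genes. Its score averaged 5.29 ± 0.34 in unexposed wild type, 5.59 ± 1.11 in exposed wild type, 4.64 ± 0.29 in unexposed knockout and 5.23 ± 0.34 in exposed knockout (SD, n = 4 libraries each). With this score as a covariate the averaged hydroquinone effect was 0.08 for Psmb9 and -0.01 for Psmb8.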

How the data were processed

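RNA from 16 RPE libraries was sequenced as paired-end reads on an Illumina NovaSeq, per the labels' protocols. Per the submitters' processing notes the authors used STAR, Cufflinks and DESeq2 with mm10, and the counting tool, annotation, strand setting and duplicate handling are not given in the sources used here. The deposited values are whole-number read counts per Ensembl gene (51912 genes), although the table is announced as FPKM. Gene symbols came from GENCODE vM21 and matched 51633 identifiers. Groups were taken from the titles. No library was a copy of another of its group: over genes, the smallest chi-square divided by its degrees of freedom was 20.3.

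Counts were scaled by TMM and tested with edgeR 4.0.16 (R 4.3.3; quasi-likelihood F test, all 4 groups in 1 model, 7 contrasts) over the 15380 genes whose mean reached 1 CPM, which hold 99.8% of counts. P-values were adjusted by Benjamini-Hochberg over all of them, with 0.05 as the threshold. Standard errors were derived from the F statistic. Levels are CPM computed on TMM-scaled totals, and log2 levels use a pseudocount of 1. Depth limits the precision of low genes, and no interval for single counts is given. Correlations used 100000 resamples, 2-sided, over mice. The alternatives were DESeq2 1.42.0, limma 3.58.1 with the mouse as a random block (consensus correlation of the eyes of a mouse -0.0202), the eyes of a mouse summed, median-of-ratios scaling (no TMM for levels), no filter, only the groups compared, the form of the library identifier as covariate or 1 form alone, rod or macrophage scores as covariates, a pseudocount of 0.1 for the correlations, and each library or mouse left out. Corneal and interferon scores as covariates, and leaving out wild-type hydroquinone replicates 2 and 3 together, were added after the data were seen. The scripts were tested on simulated data.

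The genes and lists were chosen with earlier results of these data known. Named were, per contrast, the 3 members with the smallest p, the immunoproteasome genes and their counterparts, the highest and lowest length-scaled gene per class, and the gene with the smallest p of the assembly and ubiquitin lists. Some values that this rule or the lists gave are not reported here.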

Additional observations from a re-analysis of the deposited data

Results flagged for a closer look

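Within each group of 4 libraries, a library was marked where its gap to the nearest other library exceeded Dixon's 95% critical share of the group's whole range. Chance marks about 1 in 20 groups, or 7.8 of the 156 sets examined here, and 5 were marked. In log2(CPM + 1), Psma6 was 6.95 in unexposed wild-type replicate 1, against 6.53 to 6.59 in the other libraries of that group. Psmb10 was 4.52 in exposed knockout replicate 1, below the 4.85 to 4.87 of the other libraries. In the same library Psmd4, a ubiquitin receptor of the cap, was 6.81, above the 6.60 to 6.63 of the others. Psmd12 was 6.49 in exposed knockout replicate 2, against 6.24 to 6.28. The mean level of the 6 ATPase genes was 6.87 in unexposed knockout replicate 1, against 6.83 in each of the other libraries.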

How the results depend on the processing

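No member was called in any of 175 alternative or left-out fits over the 7 contrasts (edgeR, DESeq2 or limma), and no length-scaled level moved by over 1 SD without TMM scaling. The median over the 34 genes moved from -0.05 to 0.15 for hydroquinone in wild type, with replicate 2 or 3 of exposed wild type left out. Single genes were followed by the naming rule: the immunoproteasome genes in every contrast, other genes only where their p was among the smallest. A count of sign changes among them therefore does not compare the classes. Constitutive genes changed sign too: their median for hydroquinone in wild type went from 0.07 to -0.06 without exposed wild-type replicate 2. Of 824 log2 fold changes of the genes followed, 37 changed sign, all of Psmb8, Psmb9 or Psmb10 and none called. The cause was not tested. With the interferon score as covariate these were, for hydroquinone, Psmb8 -0.17 and Psmb9 -0.082 in wild type, Psmb10 -0.031 in knockout and Psmb8 -0.0087 averaged. For knockout they were Psmb8 0.0086 and Psmb10 0.27 untreated, Psmb8 0.34, Psmb9 0.32 and Psmb10 0.20 with hydroquinone, and Psmb8 0.17, Psmb9 0.16 and Psmb10 0.24 averaged. With the corneal score they were Psmb8 -0.031 for hydroquinone in wild type, Psmb8 0.46, Psmb9 0.36 and Psmb10 0.27 for knockout with hydroquinone, and Psmb10 0.12 for knockout averaged and 0.31 for the interaction. In libraries without a letter Psmb10 was 0.074 for knockout untreated and Psmb9 -0.13 for the interaction. With a letter, where exposed wild type had only replicate 4, Psmb10 was 0.11 for knockout with hydroquinone and 0.39 for the interaction. The interaction of Psmb10 was 0.026 in limma and 0.055 without exposed wild-type replicates 2 and 3.

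With each library left out in turn, hydroquinone in wild type ran from -0.012 to 1.00 for Psmb9 and -0.043 to 0.60 for Psmb10. Knockout untreated ran from -0.30 to 0.013 for Psmb10. Knockout with hydroquinone ran from -0.78 to 0.082 for Psmb8, -0.80 to 0.21 for Psmb9 and -0.41 to 0.23 for Psmb10, and Psmb10 averaged over treatment from -0.26 to 0.061. The interaction ran from -0.071 to 0.80 for Psmb8, -0.12 to 0.89 for Psmb9 and -0.30 to 0.34 for Psmb10. No paired comparison of groups was possible because, by the titles, each mouse belongs to a single group. The labels carry no replicate numbers, and the numbers used here follow the order of the samples. With 4 libraries a group from as few as 2 mice, the 95% intervals of constitutive genes had a median half-width of 0.24 within a genotype or treatment.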
